A study of Mus musculus with 107 samples.

Results

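The genes described here are 9 candidate causal genes for fat mass that were nominated from liver expression and genetics of this cross: Zfp90, C3ar1, Tgfbr2, Hsd11b1, Lactb, Lpl, Gpx3, Gas7 and Me1. They were chosen by name, and all 9 of 9 were found among the 12315 genes measured on the arrays. Tgfbr2 had 2 probes, and each of the others had 1. Every probe of these genes had a value on all 104 arrays, none of them at the limits of the scale.

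The livers came from female mice of the F2 generation of a cross of C57BL/6J with DBA/2J, both inbred, so each mouse carries its own mixture of both parental genomes. All of them ate an atherogenic diet, which raises blood lipids, and the labels give no age, no mouse on another diet and no further treatment. RNA of each mouse was hybridised on an array with 2 colours against a common pool made from all the mice. The labels state 111 mice, 107 arrays were used here, and 3 of these (mice 24, 55 and 91) held only 0 or missing values, which leaves 104 mice in 1 group. A value is therefore the ratio of a mouse to the pool, given as log2. It shows differences between mice, not how abundant a gene is, so neither the levels of different genes nor the presence of liver markers could be compared.

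Deposited values were read as log10 ratios of mouse to pool. The base is not stated, and base 10 was taken because values stop at exactly -2 and 2. Folds would be smaller under another base, and correlations would not change. The direction was not settled either, since the dyes are not given here. Titles name the mouse first, which makes mouse over pool likely. Among 5356 pairs of arrays, 7 had r below -0.3. With all signs turned, low and high mice change places and every correlation stays as it is. Values at -2 or 2 numbered 946 to 1828 on each of 18 arrays and at most 496 on each of the other 86. These limit-rich arrays are shown apart, and results are given for both sets. No array was repeated, so array noise is part of every spread. The livers are bulk tissue, in which fewer cells of a type and less RNA per cell cannot be told apart.

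Fat mass depends on how the body takes up, makes and burns fat, and the liver takes part in each step. Lipoprotein lipase (Lpl) releases fatty acids from circulating triglycerides, and cytosolic malic enzyme (Me1) supplies NADPH for building new ones. Hsd11b1 regenerates active glucocorticoid inside cells. C3ar1 is the receptor of the complement fragment C3a and is found on myeloid cells, and Tgfbr2 is the receptor that binds TGF-beta, the main driver of matrix production in liver injury. Gpx3 is the secreted, selenium-dependent glutathione peroxidase of plasma. Lactb is a mitochondrial protein that forms filaments between the membranes, Gas7 is a protein that binds and bends membranes and actin, and Zfp90 is a KRAB zinc finger repressor of transcription.

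Of the 9 genes, Lpl had the widest spread over mice. It ran from -2.25 log2 in mouse 9 through a median of -0.16 to 2.08 in mouse 111, an SD of 0.98 ± 0.057 (jackknife standard error, n = 104). Between its 5th and 95th percentiles lay a 9.49-fold range, wider than that of most genes: its SD exceeded that of 96.8% of all genes, whose median range was 1.94-fold. With 17 mice more than 2-fold above the pool and 20 more than 2-fold below it, Lpl was spread evenly to both sides (skewness 4.6e-04).

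Hsd11b1 ran from -3.38 log2 in mouse 20 through a median of 0.12 to 1.03 in mouse 156, with an SD of 0.74 ± 0.089 and a range of 4.42-fold. Its distribution had a long lower tail (skewness -1.61): 10 mice lay more than 2-fold below the pool and 1 above. Me1 ran from -1.95 in mouse 21 through -0.07 to 1.41 in mouse 18, with an SD of 0.67 ± 0.044 and a range of 4.28-fold. Again 10 mice lay more than 2-fold below the pool and 1 above it.

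Gpx3 had the opposite shape, with a long upper tail (skewness 1.5). It ran from -1.31 log2 in mouse 62 through a median of -0.45 to 2.51 in mouse 120, with an SD of 0.68 ± 0.075 and a range of 4.23-fold. The highest mouse stood 0.87 log2 above the next, mouse 26 at 1.64.

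Zfp90 ran from -0.93 in mouse 155 through 0.00028 to 1.49 in mouse 120 (SD 0.56 ± 0.035, range 3.66-fold), and 7 mice lay more than 2-fold above the pool and 0 below it. C3ar1 ran from -0.74 in mouse 122 through -0.10 to 1.04 in mouse 78 (SD 0.36 ± 0.028, range 2.39-fold). Lactb ran from -1.27 in mouse 111 through -0.03 to 0.72 in mouse 134 (SD 0.40 ± 0.034, range 2.61-fold). These spreads lay nearer to those of genes in general, above the SD of 79.0%, 54.5% and 61.7% of all genes.

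Gas7 barely varied. Its values ran from -0.31 log2 in mouse 56 through 0.0068 to 0.53 in mouse 22, with an SD of 0.17 ± 0.014 and a range of 1.5-fold, above the SD of only 9.54% of all genes. No mouse lay 2-fold from the pool.

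Ordered by SD, Lpl came first, then Hsd11b1, Gpx3, Me1, Zfp90, Lactb, C3ar1, Tgfbr2 (mean of both probes) and Gas7. Lpl exceeded Hsd11b1 by 0.24 ± 0.10, a difference of 2.39 standard errors. The steps from Hsd11b1 to Gpx3, Gpx3 to Me1, Lactb to C3ar1 and C3ar1 to Tgfbr2 were all under 2 standard errors. The steps from Me1 to Zfp90 (0.11 ± 0.048), Zfp90 to Lactb (0.16 ± 0.030) and Tgfbr2 to Gas7 (0.18 ± 0.032) were larger. The place of Tgfbr2 depended on the probe: taken alone, its 2 probes had SDs of 0.744 and 0.165, against 0.173 for Gas7. Leaving out the limit-rich arrays gave SDs of 0.78 for Hsd11b1 and 0.17 for Gas7.

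**Figure D1:**
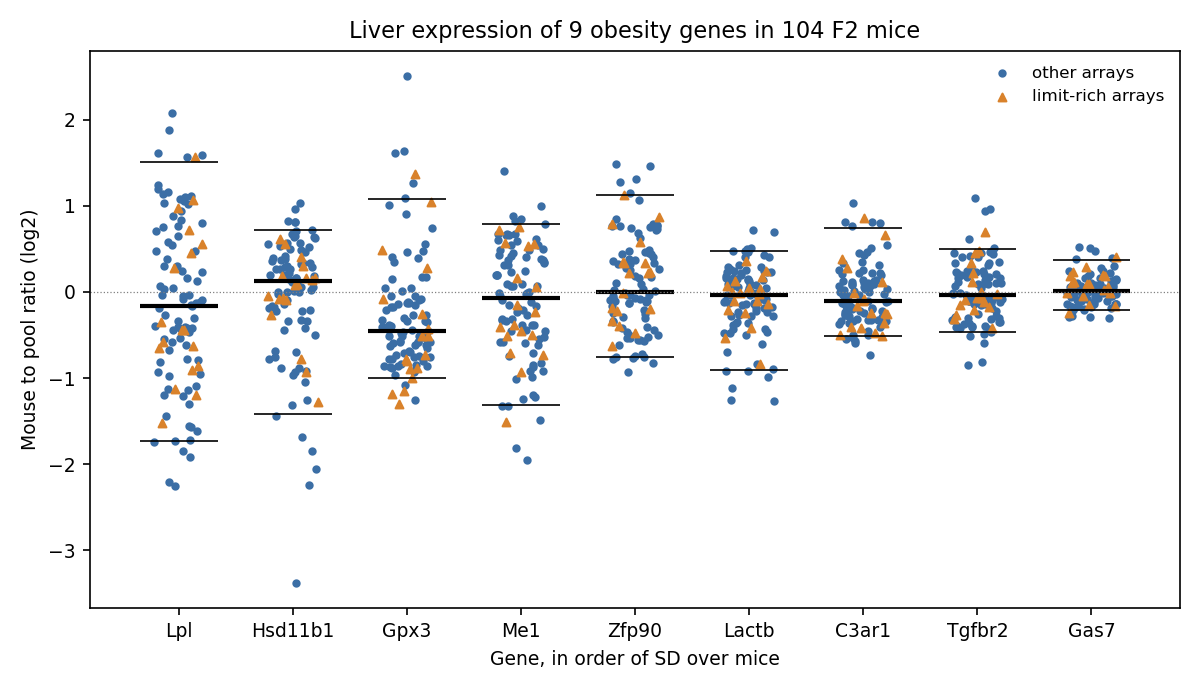
Ratio of each of the 104 mice to the pool (y axis, log2) for the 9 genes (x axis, in order of SD); each point is 1 mouse, triangles are the 18 limit-rich arrays, the thick line is the median and the thin lines are the 5th and 95th percentiles. Lpl spans -2.25 to 2.08, while Gas7 stays between -0.31 and 0.53, and the triangles lie within the spread of the other arrays for each gene except Gpx3, whose lowest value is a triangle.

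The 2 probes of Tgfbr2 disagreed. Probe 10018176024, called the wide probe here, ran from -1.60 log2 in mouse 36 through -0.12 to 2.41 in mouse 26 (SD 0.74 ± 0.059, range 4.36-fold). Probe 10018180757, the narrow probe, ran from -0.22 in mouse 68 through 0.05 to 0.60 in mouse 144 (SD 0.17 ± 0.015, range 1.45-fold). Over the 104 mice they correlated negatively (r = -0.360, permutation p = 1.2e-04, rho = -0.451, permutation p = 1e-05, the smallest that 100000 permutations can give). Without the 2 mice farthest from the median r was -0.325. It was -0.309 on the 86 arrays and -0.715 on the 18 limit-rich arrays. The 863 genes with more than 1 probe had a median r between probes of 0.189. The narrow probe is annotated to a RefSeq mRNA and the wide probe to a cDNA clone. The mean of both probes, used for Tgfbr2 below, follows the wide probe, and which of them reports the receptor's transcript was not tested.

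Apart from Gas7, the genes varied together on 2 opposite sides. Zfp90, C3ar1, Tgfbr2, Lpl and Gpx3 were high in the same mice, and Hsd11b1, Lactb and Me1 were low in those mice. Mouse 111 was among the 10 most extreme mice toward that end for 8 of these 8 genes, with Lpl at 2.08, Zfp90 at 1.31 and C3ar1 at 0.81 but Lactb at -1.27, Hsd11b1 at -1.26 and Me1 at -1.22 log2. Mouse 120 was so for 7 of them. At the other end, mice 17 and 18 were among the 10 most extreme for 6 genes each. Mouse 17 had Lpl at -1.74, Zfp90 at -0.75 and Gpx3 at -1.25 with Hsd11b1 at 0.81, Lactb at 0.70 and Me1 at 0.62. The array of mouse 111 had a wide spread over all its values, with an SD of 0.72 log2 against a median of 0.43 over arrays. Those of mice 18 and 120 each correlated below -0.3 with another array.

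Each gene was used in turn as the predictor in a limma fit over all genes, with p-values adjusted by Benjamini and Hochberg over the 12314 other genes, and a pair was called when the adjusted p was under 0.05 with each of its genes as the predictor. The larger of both adjusted p-values is printed. With Tgfbr2 as the mean of its probes, 28 of 36 pairs were called, 13 positive and 15 negative, and these were all 28 pairs without Gas7. This count is to be read against a high background: with these 8 genes, the share of all genes called was 56.3% for Zfp90, 53.3% for C3ar1, 51.8% for Tgfbr2, 56.5% for Hsd11b1, 53.3% for Lactb, 45.4% for Lpl, 51.1% for Gpx3 and 48.2% for Me1. For Gas7 it was 19.7%. Sizes of correlations have a background too, and for the weaker pairs it was high. For Lactb and Lpl, 21.3% of genes correlated at least as strongly with Lactb and 15.8% with Lpl. For Tgfbr2 and Lactb the shares were 18.0% with Tgfbr2 and 15.8% with Lactb. The called pairs had r of size 0.455 to 0.871, and each kept its sign on the 86 arrays and on the 18 limit-rich arrays, where sizes ran from 0.425 to 0.878. Since the genes were nominated from livers of this cross, their co-variation is no independent evidence that they belong together.

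Zfp90 and C3ar1 formed the tightest pair, at r = 0.871 (95% interval 0.815 to 0.911, rho = 0.873, permutation p = 1e-05 for each, limma adjusted p = 2.94e-30). Only 0.106% of genes correlated as strongly with Zfp90, and 0.0406% with C3ar1. The value was 0.881 on the 86 arrays, 0.878 on the 18 and 0.864 without the 2 mice farthest from the median of Zfp90. Both were low in mouse 122 and high in mice 78, 111 and 120, and no mouse was among the 10 highest for one gene and the 10 lowest for the other. On the opposite side Hsd11b1 and Lactb had r = 0.804 (interval 0.723 to 0.863, rho = 0.724, permutation p = 1e-05 for each, limma adjusted p = 1.07e-22). Lactb and Me1 had r = 0.742 (interval 0.641 to 0.818, rho = 0.713, limma adjusted p = 2.49e-16 and permutation p = 1e-05 for each), and Hsd11b1 and Me1 r = 0.715.

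Between the sides, Zfp90 and Hsd11b1 had r = -0.794 (interval -0.856 to -0.710, rho = -0.832, permutation p = 1e-05 for each, limma adjusted p = 3.15e-22). Gpx3 and Hsd11b1 had r = -0.770 (rho = -0.718), and Zfp90 and Me1 r = -0.750 (rho = -0.770). The weakest called pair was Lactb and Lpl, at r = -0.455 (interval -0.596 to -0.288, rho = -0.457, limma adjusted p = 6.55e-06, permutation p = 1e-05 for each). With Tgfbr2 the result depended on the probe. The wide probe had r = 0.791 with Lpl, 0.774 with Zfp90 and -0.729 with Hsd11b1, whereas the narrow probe had -0.208, -0.265 and 0.232. With the narrow probe as predictor, Zfp90, C3ar1 (-0.244) and Hsd11b1 passed, each with the opposite sign (limma adjusted p = 0.0215, 0.0375 and 0.0478). Lpl, Gpx3 (-0.184), Me1 (0.130) and Lactb (-0.0556) did not pass.

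Gas7 stood outside both sides, with r between -0.196 (Lpl, permutation p = 0.0471, limma adjusted p = 0.134) and 0.178 (Hsd11b1, permutation p = 0.070, limma adjusted p = 0.181), and 0 of 8 pairs called. This holds for Tgfbr2 as the mean of its probes (r = -0.0954). The narrow probe alone had r = 0.353 with Gas7 (limma adjusted p = 0.002, probe as predictor). The wide probe had -0.168 (limma adjusted p = 0.144). By unadjusted permutation p, Lpl alone was under 0.05, with rho = -0.207 (permutation p = 0.0344). On the 18 limit-rich arrays r with Lpl was -0.712 and with Zfp90 -0.587, against -0.108 and -0.0350 on the other 86. That difference between the sets of arrays was not tested.

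**Figure D2:**
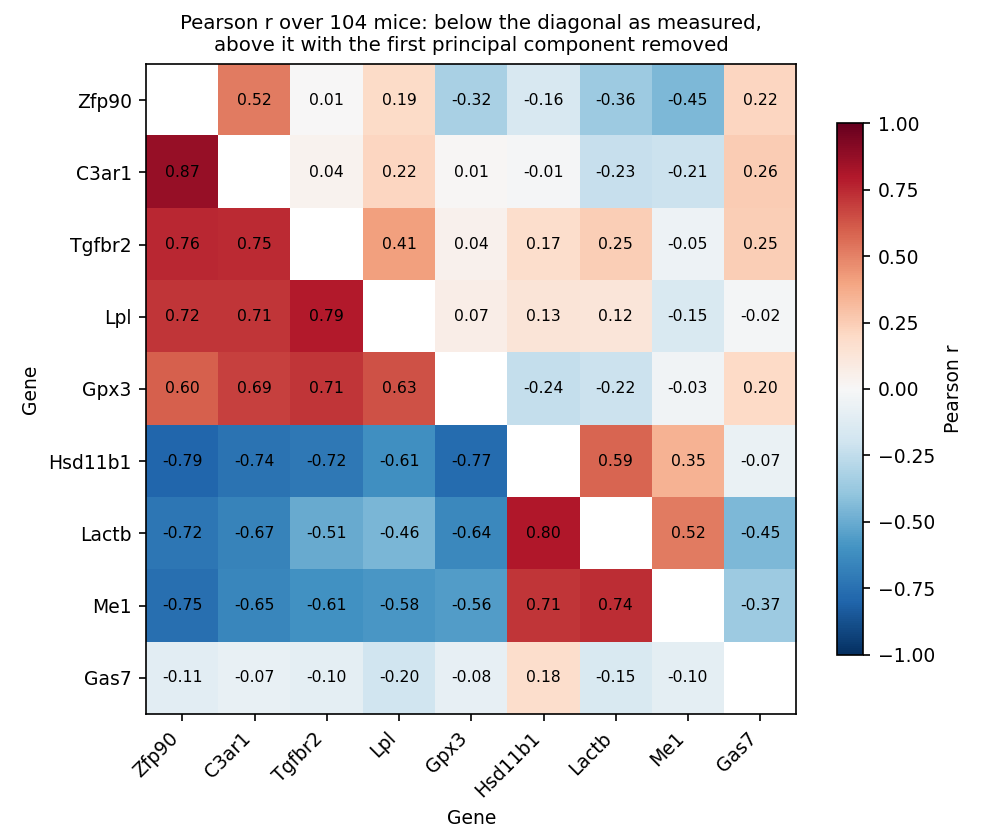
Pearson r over 104 mice for the 36 pairs of the 9 genes, on a colour scale from -1 to 1; cells below the diagonal hold the measured values and cells above it those with the first principal component of all genes removed. Below the diagonal the cells split into a positive block of 5 genes, a positive block of 3 and negative values between them, with Gas7 near 0, and most cells above the diagonal are pale.

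**Figure D3:**
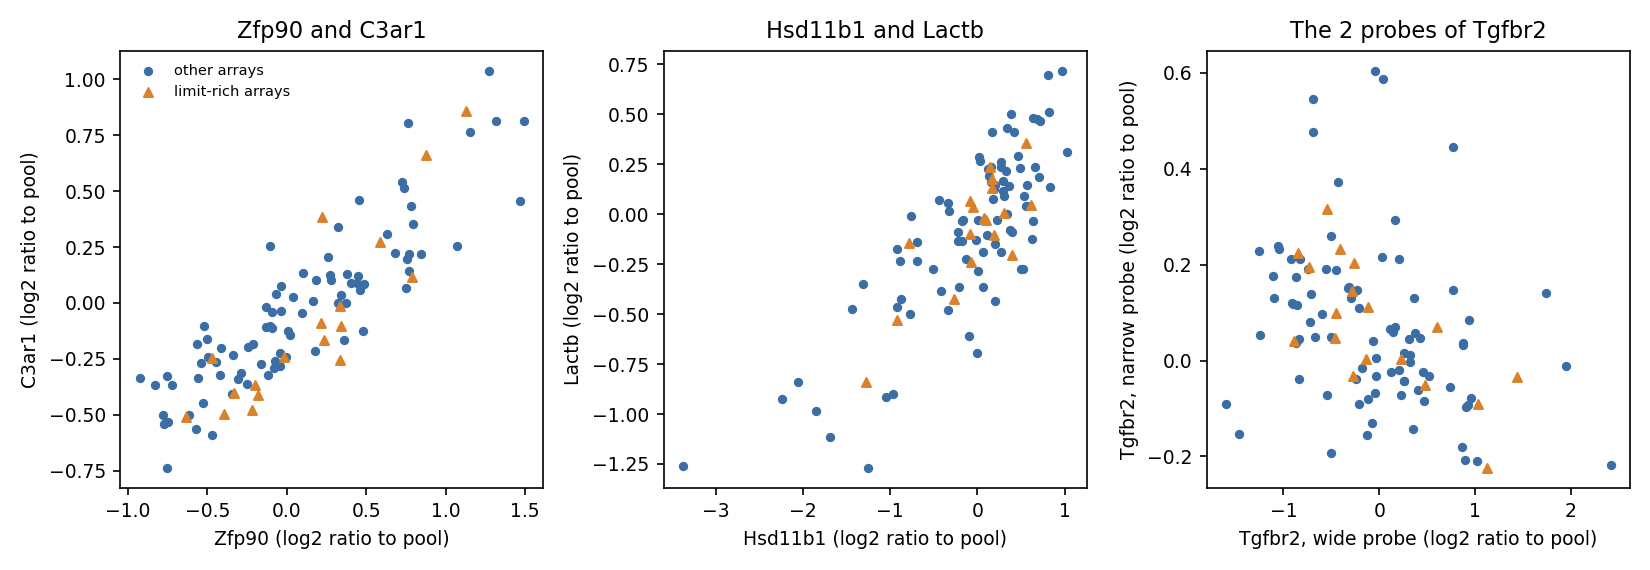
Log2 ratio to the pool for 2 pairs of genes and for the 2 probes of Tgfbr2, 1 point per mouse, triangles for the 18 limit-rich arrays. Zfp90 and C3ar1 (r = 0.871) and Hsd11b1 and Lactb (r = 0.804) rise together along the whole range, while the probes of Tgfbr2 slope down (r = -0.360).

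To show the regulatory sequence of genes from both sides of this pattern, the promoters of C3ar1, Hsd11b1 and Lactb are printed, as the 250 bases before the annotated start in RefSeq (build GRCm38.p6). The table of promoters matched 6 of the 9 genes, with 7 entries because Me1 has 2 starts. It holds none here for Zfp90, Lpl and Gas7. Capitals mark matches on either strand to 4 short motifs: the GC box GGGCGG, the CCAAT box CCAAT, the TATA box TATAAA and the AP-1 motif TGANTCA.
C3ar1, chr6:122856158-122856407, minus strand: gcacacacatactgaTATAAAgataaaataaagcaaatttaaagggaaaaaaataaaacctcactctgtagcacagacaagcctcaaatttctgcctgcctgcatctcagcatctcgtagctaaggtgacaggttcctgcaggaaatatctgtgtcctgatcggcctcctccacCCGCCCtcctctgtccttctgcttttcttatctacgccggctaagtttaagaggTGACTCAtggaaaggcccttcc
Hsd11b1, chr1:193242361-193242610, minus strand: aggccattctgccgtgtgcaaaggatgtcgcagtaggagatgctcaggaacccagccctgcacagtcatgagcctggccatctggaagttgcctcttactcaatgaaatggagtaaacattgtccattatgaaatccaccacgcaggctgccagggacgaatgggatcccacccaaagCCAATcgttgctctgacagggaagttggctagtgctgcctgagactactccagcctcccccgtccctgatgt
Lactb, chr9:66975485-66975734, minus strand: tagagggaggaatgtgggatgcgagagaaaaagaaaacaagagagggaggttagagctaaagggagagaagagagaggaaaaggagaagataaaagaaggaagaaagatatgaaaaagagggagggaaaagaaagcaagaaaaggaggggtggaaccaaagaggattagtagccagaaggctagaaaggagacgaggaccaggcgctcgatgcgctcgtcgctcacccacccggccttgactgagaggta
C3ar1 held 1 GC box, 1 TATAAA far upstream and 1 AP-1 motif close to the start, Hsd11b1 held 1 CCAAT box, and Lactb held 0 of the 4 motifs. Over all 32851 promoter windows of this length, 32.7% held the GC box, 33.8% the CCAAT box, 12.4% TATAAA and 6.75% the AP-1 motif. In the windows of the other members Gpx3 had 1 GC box and 1 CCAAT box and Tgfbr2 had 2 CCAAT boxes. Me1 had 3 GC boxes at one start and 1 CCAAT box at the other. No 1 of the 4 motifs was present in all 6 genes, and a match is a description of letters only.

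Most of the shared variation lay along the main axis of all genes. The first principal component of the 12315 genes took 19.5% of their variance, and the median gene had r of size 0.283 with it. Turned so that Zfp90 is positive, Tgfbr2 had r = 0.873 with it, Zfp90 0.867, C3ar1 0.847, Gpx3 0.804 and Lpl 0.754, and Hsd11b1 had -0.870, Lactb -0.681 and Me1 -0.674. Only 0.877% of genes lay as close to this axis as Tgfbr2, 0.950% as Hsd11b1, 1.05% as Zfp90 and 1.75% as C3ar1, against 11.2% for Me1 and 55.8% for Gas7 (r = -0.243). On the 86 arrays and on the 18 alone each of the 8 kept its sign, with sizes from 0.684 to 0.901 and from 0.653 to 0.926. The axis correlated with the SD of the array at 0.138 and with the mouse number at 0.271.

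With that component as a term in the fit, 10 pairs were called. The share of all genes called was then 23.4% for Zfp90, 12.9% for C3ar1, 10.3% for Tgfbr2, 28.6% for Hsd11b1, 41.2% for Lactb, 10.3% for Lpl, 3.35% for Gpx3, 16.0% for Gas7 and 19.0% for Me1. Of the 28, 7 stayed called with the same sign: Zfp90 with C3ar1 (r = 0.516 with the component removed), Lactb (-0.360) and Me1 (-0.450), Hsd11b1 with Lactb (0.585) and Me1 (0.351), Lactb with Me1 (0.522), and Tgfbr2 with Lpl (0.411). Zfp90 and Gpx3 stayed called with the opposite sign (-0.321, against 0.601 as measured). Gas7 was then called with Lactb (-0.447) and with Me1 (-0.367).

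**Figure D4:**
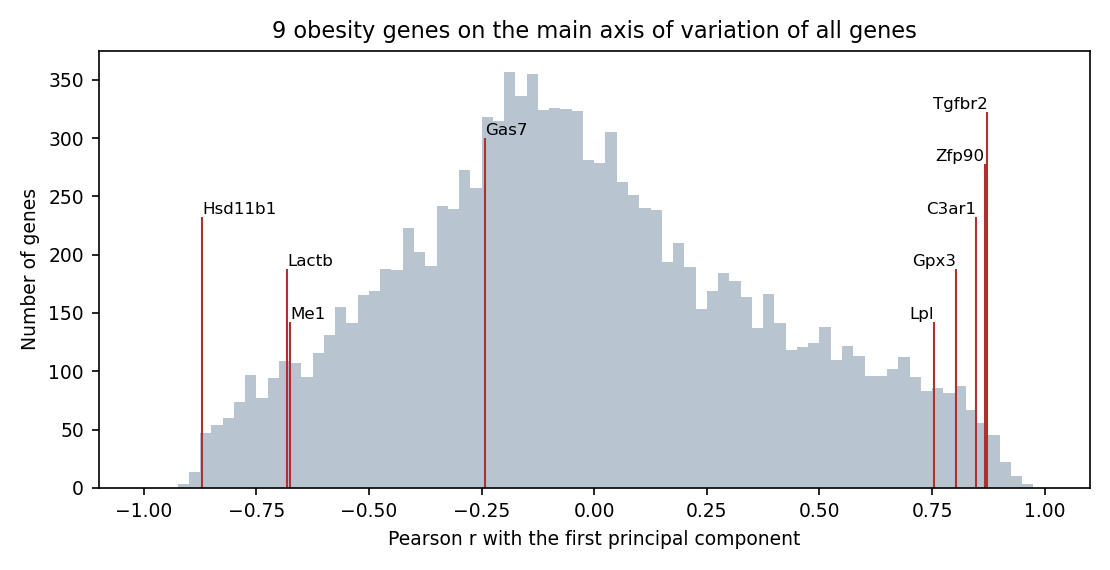
Histogram of Pearson r between each of 12315 genes and the first principal component (x axis; y axis is the number of genes in each bin), with lines at the 9 genes. Tgfbr2, Zfp90, C3ar1, Gpx3 and Lpl sit at the right edge between 0.754 and 0.873, Hsd11b1 near the left edge at -0.870, Lactb and Me1 at -0.681 and -0.674, and Gas7 at -0.243 among the bulk of genes.

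Zfp90 was followed most closely by Leprot (r = 0.918), Lgmn, a lysosomal protease (0.913), Plekho1 (0.907) and Iqgap1, a cytoskeletal scaffold (0.891), and most inversely by Ebp, a sterol isomerase (-0.839), and the female-biased Cyp2b9 (-0.825), each over 104 mice. In its fit 3045 genes (24.7%) were higher with it and 3883 (31.5%) lower. Among 12 measured genes of KRAB silencing, the machinery that such zinc finger proteins recruit, 4 were higher and 1 lower. Chd4, a remodeller of chromatin, had r = 0.478, Cbx1, a heterochromatin protein, -0.413 and Rest, another repressor, 0.411. Trim28, the direct partner of KRAB domains, had r = -0.0917, Setdb1 -0.0956 and Cbx3 0.0858, and none of these 3 passed. The list's median r was 0.0964, against -0.0636 over all genes. With the first principal component as a term, 2 were higher and 6 lower, against 23.4% of all genes called.

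C3ar1 was nearest to Plekho1 (0.888), Pld3 (0.881), Ckb (0.873) and Lgmn (0.872), and most inverse to Dusp28 (-0.795) and Cyp2b9 (-0.789). Higher with it were 23.1% of genes and lower 30.2%. Of 19 measured complement genes, 4 were higher and 6 lower, shares near those over all genes, and the median of -0.0412 compares with -0.0608. With the component as a term, 13 were higher and 0 lower, against 12.9% of all genes called. As measured, the higher ones were C1qb (0.795), C1qa (0.779) and C1qc (0.771), subunits of C1q, which macrophages make, and Cfp (0.515), properdin. The lower ones included Masp2 and Mbl2 (both -0.501) and Mbl1 (-0.489), of the lectin pathway, which hepatocytes make. C5ar1, the receptor of C5a, had r = 0.0550, Cfb -0.0063 and C4b -0.0413, and none of these passed.

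Tgfbr2, as the mean of its probes, was nearest to Cttnbp2nl (0.892), Gng2 (0.885), Nucb2 (0.879) and Esyt1 (0.876), and most inverse to Dhrs4 (-0.829) and Mtif3 (-0.809). Of all genes, 23.7% were higher and 28.1% lower. Of 25 measured genes of TGF-beta signalling, 13 were higher and 2 lower, and their median r of 0.223 compares with -0.0511 over all genes. With the component as a term, 3 were higher and 1 lower (median 0.0384), near the share of all genes called. As measured, Ltbp3, which stores latent TGF-beta in the matrix, had r = 0.803, Ccn2, a matrix protein induced by TGF-beta, 0.793, and the ligands Tgfb3 and Tgfb2 0.752 and 0.737. The ligand Tgfb1 had only 0.0257, the co-receptor Tgfbr3 0.185 and the signalling partner Tgfbr1 0.292, of which Tgfbr1 alone passed. Endoglin (Eng), a co-receptor of endothelium, passed at 0.355. The 2 lower genes were Smurf1 (-0.483) and Smurf2 (-0.306), ubiquitin ligases of this pathway. Taken alone, the wide probe called 54.9% of all genes and the narrow probe 35.5%, and the values here are those of the mean.

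Hsd11b1 was nearest to Cyp2d40 (0.914), Grtp1 (0.910), Ugt2a3, a glucuronosyltransferase (0.909), and Prima1 (0.908), and most inverse to Zfp61 (-0.886) and Jpt1 (-0.884). Of all genes, 29.8% were higher and 26.7% lower. Among 14 measured genes of glucocorticoid activation and response, 4 were higher and 6 lower (median -0.0902, against 0.0482 over all genes), and with the component as a term 1 was higher and 3 lower. Under that term 28.6% of all genes were called, near the share of this list. As measured, Nr3c1, the glucocorticoid receptor, had r = 0.415 and Tdo2, a tryptophan dioxygenase of hepatocytes, 0.581. In the other direction went Lcn2 (-0.692), Sgk1 (-0.658), Zbtb16 (-0.475), Mt2 (-0.467) and Fkbp5 (-0.434). Not all of the 4 higher genes are named here. Lcn2 is also an acute phase gene. Tsc22d3, H6pd and Hsd11b2 were not measured in the set kept here, and Per1 (-0.0625) did not pass.

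Lactb was nearest to Pde8a (0.907), Trap1, a mitochondrial chaperone (0.887), Fech, the last enzyme of haem synthesis in mitochondria (0.879), and Cdadc1 (0.877), and most inverse to Ralb (-0.832) and Ssbp4 (-0.824). Higher with it were 27.7% of genes and lower 25.6%. Of 15 measured genes of the mitochondrial inner membrane and its lipids, 10 were higher and 2 lower, with a median r of 0.279 against 0.0232 over all genes, and with the component as a term 4 were higher and 3 lower. Under that term 41.2% of all genes were called with Lactb, near the share of this list. As measured, Opa1, which fuses inner membranes, had 0.725, Lactb2 0.692 and Slc25a4, an ADP/ATP carrier, -0.632. The other ADP/ATP carrier Slc25a5 had the opposite sign (0.606). Chchd3, of the cristae junctions, had 0.603, while its partner Immt (0.173) and Chchd6 (-0.127) did not pass.

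Lpl was nearest to Cd63 (0.850), Gpr137b (0.848), Mpeg1 (0.844) and Csf2rb2 (0.844), of which Mpeg1 is a perforin of macrophages and Cd63 a lysosomal membrane protein. Most inverse were Nprl2 (-0.737) and Cnmd (-0.723). Of all genes, 19.5% were higher and 25.9% lower. Of 14 measured genes of the lipase system, 3 were higher and 5 lower (median -0.0773, against -0.0578 over all genes), and by limma with the component as a term 0 were called. As measured, those higher were Fabp4, the fatty acid binding protein of fat cells and macrophages (0.691), Gpihbp1, which holds the lipase on capillaries (0.343), and the receptor Lrp1 (0.276). Lower were Lipg, the endothelial lipase (-0.656), Lmf1, which folds lipases (-0.636), Vldlr (-0.477), and the hepatocyte genes Apoa5 (-0.452) and Apoc3 (-0.444). Apoc2, the activator of the lipase, had r = 0.218 and its inhibitor Angptl4 -0.0049, and neither passed.

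Gpx3 was nearest to Rragd (0.830), Bex1 (0.830), Ahnak (0.821) and Card19 (0.817), and most inverse to Nectin3 (-0.807) and Cd1d1 (-0.788). Higher with it were 23.2% of genes and lower 27.9%. Of 29 measured genes of glutathione and selenoproteins, 10 were higher and 8 lower (median 0.0916, against -0.0397 over all genes), and by limma with the component as a term 0 were called. As measured, Gpx7, a peroxidase of the endoplasmic reticulum, had 0.736 and Gpx2 0.361, whereas Gpx4 (0.204) and Gpx1 (0.0734) did not pass. Gsr, which regenerates glutathione, had 0.318 and passed. The mitochondrial enzymes Txnrd2 (-0.737) and Sod2 (-0.635) went the other way, as did Gclc, the rate-limiting enzyme of glutathione synthesis (-0.566).

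Me1 was nearest to Pllp (0.760), Hsdl2 (0.747), Stk16 (0.744) and Lactb (0.742), and most inverse to Iqgap1 (-0.772) and Laptm5, a lysosomal protein of blood cells (-0.760). Higher with it were 26.3% of genes and lower 22.0%. Of 10 measured genes of cytosolic NADPH supply, 5 were higher and 2 lower (median 0.258, against 0.0331 over all genes), and with the component as a term 2 were higher and 0 lower. Under that term 19.0% of all genes were called, near the share of this list. As measured, the higher ones were led by Slc25a1, the citrate exporter (0.704), Idh1 (0.647), Mdh1 (0.611) and Gpd1 (0.583), and the lower ones were Taldo1 (-0.501) and the mitochondrial Me2 (-0.479). Pgls, of the pentose phosphate pathway, had 0.169 and did not pass. Among 14 genes of fatty acid synthesis, 10 were higher and 1 lower (median 0.435), and by limma with the component as a term 0 were called (median 0.0607). As measured, the desaturases Fads1 (0.562) and Fads2 (0.531) and the elongase Elovl5 (0.559) were higher and Scd2 (-0.683) lower. Fasn (0.171), Acly (0.122) and Scd1 (-0.157) did not pass.

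Gas7 had few close companions. Rhox9 (0.538), Pnmal1 (0.537), Ppp1r32 (0.530) and 4930438A08Rik (0.526) were nearest, and Zfp131 (-0.563) and Pnn (-0.542) most inverse. Genes called were 10.9% higher and 8.85% lower, and 15 genes had r of size over 0.5, against 1413 for Me1 and 2717 for Hsd11b1. With each array scaled to the same spread, the number of genes called fell from 2427 to 279. Gas7 correlated at 0.236 with the median absolute deviation of the array. Larger sizes were found for Tgfbr2 (0.31), Lactb (-0.30) and Gpx3 (0.25). With the SD of the array Gas7 correlated at 0.229, the largest size of the 9, followed by Lactb (-0.221). The part of array spread in the results was not tested. Of 18 measured cytoskeletal genes 0 were higher and 3 lower by limma: Pfn1 (-0.362), Arpc5 (-0.325) and Actr3 (-0.266). The actin nucleation factors Was (-0.195), Wasl (-0.0026) and Wasf1 (0.0126) did not pass, nor did Arpc1b (-0.108), a subunit of the Arp2/3 complex. Among hepatocyte genes 5 of 10 were higher and 0 lower (median 0.276): Alb (0.351), Ahsg (0.347), Arg1 (0.341), Fabp1 (0.338) and Apoa1 (0.303).

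Beyond their partner genes, Zfp90, C3ar1, Tgfbr2, Lpl and Gpx3 were higher in mice with more macrophage, matrix and duct transcripts. Of all genes, between 19.5% (Lpl) and 24.7% (Zfp90) were higher with these 5, and between 25.9% (Lpl) and 31.5% (Zfp90) lower. Of 19 macrophage and Kupffer cell genes, 15 were higher with Zfp90 and 3 lower, 14 and 3 with C3ar1, 14 and 3 with Tgfbr2, 15 and 2 with Lpl and 13 and 2 with Gpx3. Median r ran from 0.548 (Gpx3) to 0.731 (C3ar1). C1qa had r = 0.857 with Zfp90, and Mpeg1 had 0.838 with Zfp90 and 0.840 with C3ar1. Not all markers moved this way: Cd163 and Clec4f, of resident macrophages, had -0.410 and -0.326 with Zfp90, and Trem2 -0.388. Stellate cell and fibroblast genes gave 11 to 13 higher of 16 with these 5 genes, and Col1a2 had r = 0.852 with C3ar1 and Col4a1 0.846 with Tgfbr2. Cholangiocyte genes gave 8 of 8 higher with each of them but Lpl, with 7. Neutrophil genes, of which 9 were measured, gave 8 higher with Zfp90, C3ar1 and Gpx3, 7 with Tgfbr2 and 6 with Lpl, and 1 was lower with Zfp90.

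Fewer of these genes were called with the first principal component as a term. Of all genes, 23.4% were then called with Zfp90, 12.9% with C3ar1, 10.3% with Tgfbr2 and with Lpl and 3.35% with Gpx3. With Hsd11b1 the share was 28.6%. Macrophage genes then gave 6 higher and 1 lower of 19 with Zfp90, 8 and 1 with C3ar1, 6 and 0 with Tgfbr2, 8 and 1 with Lpl and 0 and 0 with Gpx3. With Hsd11b1 the counts went from 2 higher and 13 lower to 10 higher and 0 lower. Stellate cell and fibroblast genes gave 1 higher and 2 lower of 16 with Zfp90, 6 and 1 with C3ar1, 3 and 0 with Tgfbr2, 9 and 1 with Lpl and 1 and 0 with Gpx3. Cholangiocyte genes gave 0 higher with all 5 and 2 lower with Lpl, and neutrophil genes at most 2 higher.

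The mean of the macrophage genes, each scaled to SD 1, correlated at 0.785 with Zfp90, 0.774 with Tgfbr2, 0.767 with Lpl, 0.766 with C3ar1 and 0.599 with Gpx3, and at -0.627 with Me1, -0.585 with Hsd11b1 and -0.502 with Lactb. With that mean as a term, added after seeing the data, 26 pairs were called, 25 of them among the 28. Zfp90 and C3ar1 then had r = 0.677 and Hsd11b1 and Lactb 0.727. The genes called with Lpl dropped from 5586 to 838, the largest change among the 9 under this term. Beyond these values, the part of macrophage content in the result was not tested. Of 10 skeletal muscle genes 0 were higher with Zfp90 and 7 lower, 0 and 5 with Tgfbr2, 0 and 3 with C3ar1, 1 and 0 with Gpx3 and 0 and 0 with Lpl (median -0.0180). Of 7 pancreatic acinar genes 0 were higher with any of the 5, and 1 or 2 were lower. Between 25.9% (Lpl) and 31.5% (Zfp90) of all genes were lower with these 5.

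Hsd11b1, Lactb and Me1 were higher in mice with more transcripts of fatty acid oxidation, bile acid handling and the TCA cycle. Of all genes, 29.8%, 27.7% and 26.3% were higher with Hsd11b1, Lactb and Me1, and 26.7%, 25.6% and 22.0% lower. Genes of fatty acid oxidation, of which 16 were measured, gave 14, 13 and 14 higher and 0 lower with Hsd11b1, Lactb and Me1. Their median r was 0.730, 0.656 and 0.614, against medians over all genes of 0.0482, 0.0232 and 0.0331. Acaa2 and Acadm, enzymes of mitochondrial beta-oxidation, had r of 0.858 and 0.850 with Hsd11b1, and Acot1 had 0.732 with Me1. Bile acid genes gave 14 of 14 higher with Hsd11b1 and 13 with Lactb and with Me1, led by Slc27a5 (0.871 with Hsd11b1) and Slco1b2 (0.865). Genes of the TCA cycle gave 12, 13 and 15 higher of 18 and 0 lower, and the subunits Suclg2 and Suclg1 of succinyl-CoA ligase had 0.842 and 0.758 with Lactb. General hepatocyte genes followed less clearly: of 10, 5 were higher and 0 lower with Hsd11b1, 4 and 3 with Lactb (median 0.0543) and 4 and 1 with Me1 (median 0.0763). Cholesterol synthesis genes, of which 10 were measured, gave 3 higher and 3 lower with Hsd11b1, 4 and 3 with Lactb and 2 and 3 with Me1. These shares lay near those over all genes.

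With the component as a term, fatty acid oxidation gave 5 higher and 0 lower with Hsd11b1, 9 and 1 with Lactb and 7 and 0 with Me1. Bile acid genes gave 7 and 1, 5 and 1, and 0 and 0, and TCA cycle genes 5 and 2, 6 and 3, and 4 and 0, in the same order. Of all genes, 28.6% were then called with Hsd11b1, 41.2% with Lactb and 19.0% with Me1. The bile acid counts with Lactb, and the TCA cycle counts with Lactb and Me1, lay near those shares. Hepatocyte genes turned to 2 higher and 5 lower with Lactb and 0 and 4 with Me1.

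On the other side these lists were lower as measured: with Zfp90, fatty acid oxidation gave 0 higher and 14 lower of 16 (median -0.699), the TCA cycle 0 and 14 of 18, and bile acid genes 0 and 14 of 14. Of all genes, 31.5% were lower with Zfp90. Proliferation genes were inverse to Hsd11b1 (0 higher and 15 lower of 15, Mki67 at -0.728), and 14 of 15 were higher with Zfp90. Over all genes, 26.7% were lower with Hsd11b1 and 24.7% higher with Zfp90. With the component as a term, 6 were lower with Hsd11b1 and 1 with Zfp90, and 0 were higher with either. Of all genes, 28.6% and 23.4% were then called with Hsd11b1 and Zfp90. As measured, class II antigen presentation genes had their highest median with Lpl (7 of 7 higher, against 19.5% of all genes, median 0.617). H2-Aa had 0.659 and Cd74 0.628. Fat cell genes showed no common direction with Lpl: of 8 measured, Fabp4 was higher, Lipe (-0.524) and Cebpa (-0.458) lower, and Adipoq (-0.169) and Retn (-0.183) did not pass.

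**Figure D5:**
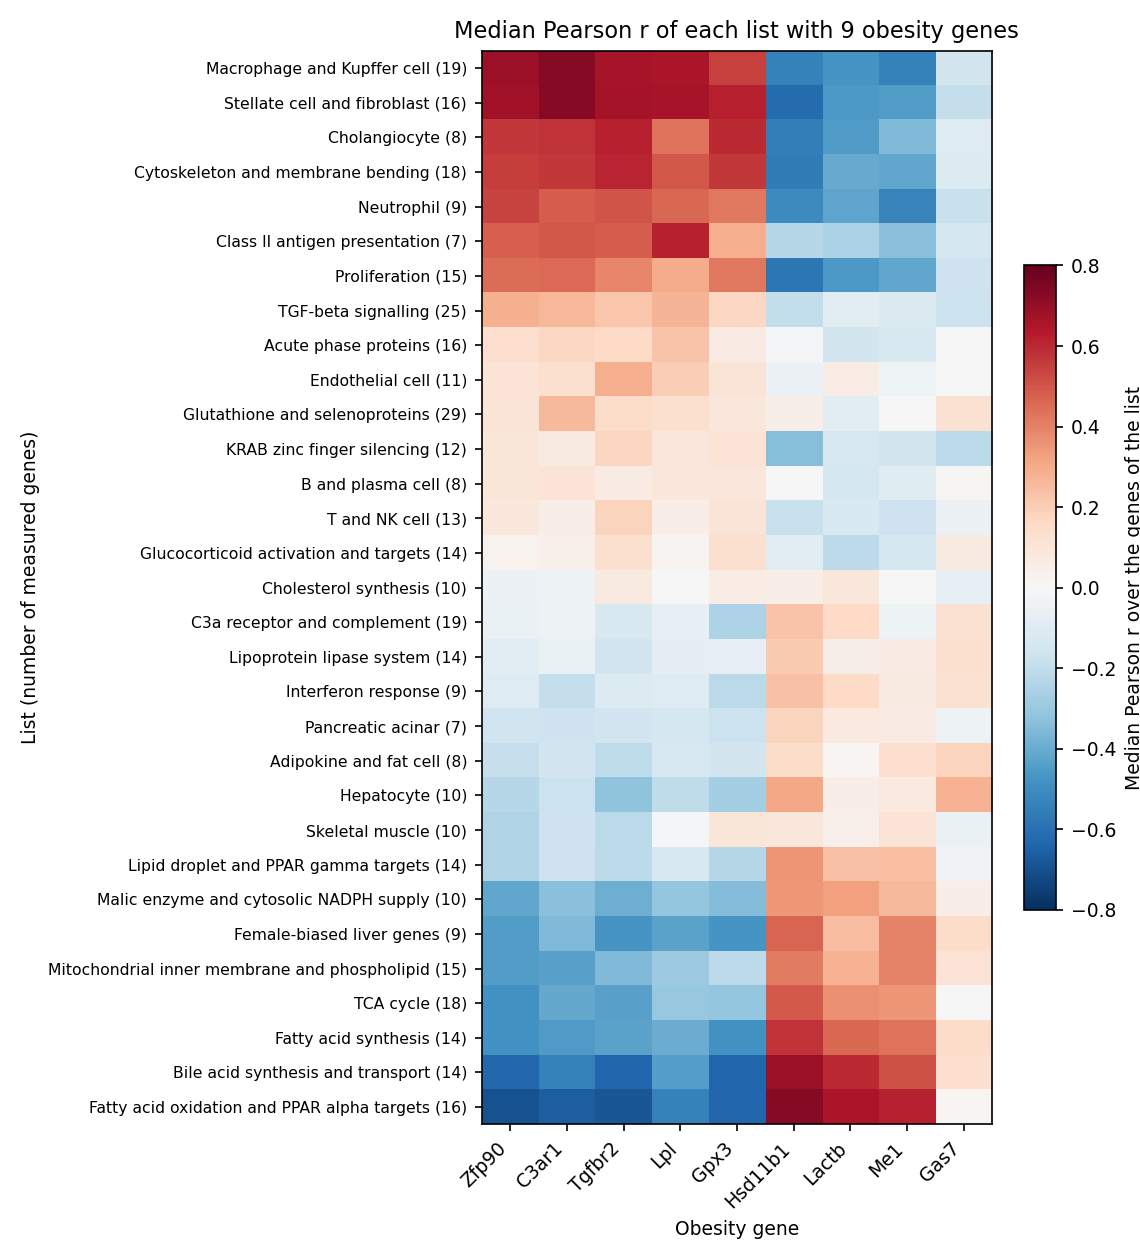
Median Pearson r (colour, -0.8 to 0.8) of the measured genes of 31 lists (rows, number of genes in brackets, in order of their median with Zfp90) with each of the 9 genes (columns). Macrophage, stellate cell and duct lists are positive with the 5 genes on the left and negative with Hsd11b1, Lactb and Me1, fatty acid oxidation and bile acid lists are the reverse, and the column of Gas7 is pale throughout.

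In an F2 cross, genes near each other on a chromosome are inherited together. Zfp90 and Lpl lie on chromosome 8, Tgfbr2, Lactb and Me1 on 9, Gpx3 and Gas7 on 11, Hsd11b1 on 1 and C3ar1 on 6 (assembly GRCm38.p6, used for neighbours only). By their promoter windows, Lactb and Me1 are themselves neighbours within 20 Mb, and Tgfbr2 lies farther away. The part of this linkage in the correlation of Lactb and Me1 was not tested. Zfp90, Lpl and Gas7 had no promoter window, and their distances to other members are not given here. Genes within 20 Mb were called about as often as genes on other chromosomes: 58.5% of 246 neighbours against 56.3% for Zfp90, 52.7% of 220 against 53.5% for C3ar1 and 56.5% of 216 against 53.4% for Lactb. Hsd11b1 had fewer, 48.4% of 91 neighbours against 56.7%. With the first principal component as a term, neighbours of Gpx3 were called in 9.25% (26 of 281) against 3.23% elsewhere, and those of Lpl in 17.8% (35 of 197) against 10.2%. Those of Hsd11b1 were then called in 35.2% against 28.6%, the reverse of the order as measured. Those of Zfp90 (21.5% against 23.4%) and Tgfbr2 (7.62% against 10.4%) were not called more often. These shares are descriptions without a test.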

How the data were processed

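The deposited values are log10 ratios of each mouse to the common pool, as read here from the authors' series matrix. The labels do not state the base, and neither the dyes nor the authors' normalization was known here. Values at -2 or 2 (1.07%) were treated as not measured, and 1.69% were missing. Ratios were converted to log2. Of 23536 probes, 14744 had 1 gene symbol in the platform annotation, 18 several and 8774 none. Probes with values on at least 90% of arrays were kept and averaged per gene, with symbols updated through GRCm38.p6, which gave 12315 genes. An array was limit-rich with more than 700 such values.

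Each of the 9 genes was the predictor in a limma (version 3.58.1) fit of all other genes, adjusted by Benjamini and Hochberg. The fit was tested on simulated data. Pairs also had Pearson r and Spearman rho with 100000 two-sided permutations. Genes on the lists were found by symbol (416) or synonym (1), and 109 were not found. Named genes were the 9, the 4 highest and 2 lowest r with each among called genes that kept their sign without the limit-rich arrays and by rank, up to 3 called genes of a list and the measured genes among the first 5 of each partner list. Genes beyond these counts were named after their values were seen, as were the promoters and motifs. The 9 genes and the lists were chosen with earlier results of these data known. The labels number the mice without litters or kinship, so p-values measure only the spread between these mice.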

Additional observations from a re-analysis of the deposited data

How the results depend on the processing

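Counts of genes called with each of the 9 genes, and of pairs called, stayed within 1.5 times under these alternatives: values at the limits kept, no limit-rich arrays, the limit-rich arrays as a batch term, ranks, probes measured on every array (genes only), and leaving out the 10 arrays that correlate below -0.3 with another (added after seeing the data). Scaling each array to one median absolute deviation did so too, except for Gas7 (279 genes, against 2427). With the first principal component as a term the genes called were 2882 for Zfp90, 1592 for C3ar1, 1273 for Tgfbr2, 3520 for Hsd11b1, 1264 for Lpl, 412 for Gpx3 and 2338 for Me1, and 10 pairs were called. With the macrophage mean as a term, added after seeing the data, they were 4013 for C3ar1, 3794 for Tgfbr2, 838 for Lpl, 3770 for Gpx3 and 3742 for Me1. The cause of these changes was not tested. Correlations of called pairs that changed sign with the component removed were Zfp90 with Gpx3 (-0.321), Tgfbr2 with Hsd11b1 (0.173) and Lactb (0.248), and Lpl with Hsd11b1 (0.129) and Lactb (0.122). With the narrow probe of Tgfbr2 alone, also added, the sign changed with Zfp90 (-0.265), C3ar1 (-0.244), Hsd11b1 (0.232), Lpl (-0.208), Gpx3 (-0.184) and Me1 (0.130). With Gas7, whose pair was not called, r went from -0.0954 to 0.353. No paired analysis was possible because the mice form 1 group. Signal over background was not analysed here.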

Other observations

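With the first principal component as a term, chosen for a closer look after seeing the data, the nearest genes were listed again. These were not all near as measured. With Lactb 41.2% of genes were called, the highest share of the 9 under this term, led by Pde8a (r = 0.871 with the component removed), Stxbp3 (0.824), Sypl (0.810) and Bloc1s4 (0.803). Smarcd2 (-0.739) and Oma1 (-0.716), a protease of the mitochondrial inner membrane that cleaves Opa1, were the most inverse. With Hsd11b1 28.6% of genes were called, with Akr1c13 (0.732), Arhgef12 (0.700), Aldh6a1 (0.679) and Ces1g (0.672) in front. For Lpl the share was 10.3%, led by Clec7a, a receptor of myeloid cells (0.620), Cd63 (0.598), Gpr137b (0.593) and Mpeg1 (0.587), and 6 of 7 class II genes were higher with it and 0 lower, and of 16 stellate cell and fibroblast genes 9 were higher and 1 lower.

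With C3ar1 12.9% of genes were called, and 13 of 19 complement genes were then higher with it and 0 lower, although as measured 4 were higher and 6 lower. For Zfp90 the share was 23.4%, with Zeb2 (0.653), Lgmn (0.653) and C1qa (0.649) in front. With Gpx3 3.35% of genes were called, the lowest share of the 9. Nearest were then Eef1a2 (0.526), Jsrp1 (0.518), Aldoa (0.512) and Cacng6 (0.507), genes known from skeletal muscle. Jsrp1 had r of only 0.0275 as measured. With the component as a term 7 of 10 skeletal muscle genes were higher and 0 lower (median 0.367), against 1 and 0 as measured (median 0.0977). Gas7 was then inverse to fatty acid oxidation genes, with 1 higher and 8 lower of 16 (median -0.264), which as measured had 1 of each. With Gas7 16.0% of all genes were called under this term.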
